A study of Mus musculus with 8 samples.

Results

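The genes described here encode the proteins of the cytosolic ribosome, measured by RNA sequencing in conventional dendritic cells (cDC) of the mouse spleen. They were chosen by name: protein-coding genes whose symbol starts with Rpl or Rps and a digit, plus Rpsa, Rplp0, Rplp1 and Rplp2, without pseudogenes and without the kinases named after ribosomal protein S6. The rule found 86 of the 55487 genes in the files. They comprise 31 genes of the small (40S) subunit, 43 of the large (60S) subunit, the 3 genes of the ribosomal stalk, 7 paralogs of these genes, and 2 genes that carry such a name without encoding a subunit, Rps19bp1 and Rpl7l1. The rule left out 10 kinase genes and 6 coding genes named as pseudogenes. Of the 86, 84 had enough counts to be tested, while Rpl3l had 0 to 11 counts per library and Rpl10l had none.

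The series holds 8 libraries in 4 groups of 2, each from untreated, sort-purified splenic cells of C57BL/6 mice, with 100000 cells per sample. The groups are wild-type cDC1, wild-type cDC2, cDC1 from mice with the Zeb2 -165(d1+2+3) genotype, which alters an enhancer of Zeb2, and cDC2 from Irf8 +32-/- mice, which lack an enhancer of Irf8. Each mutant was profiled in only 1 of the cell types, so neither genotype can be followed in both. Nothing used here gives age, sex, the number of mice behind a library or the meaning of the replicate numbers 2 and 3, so p-values measure the spread between libraries, which may be technical. As background, cDC1 and cDC2 are antigen-presenting dendritic cells, known respectively for cross-presentation to CD8+ T cells and for presentation to CD4+ T cells.

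Depth ran from 49380686 to 58611821 counts per library. Markers of the labelled cell type were present in each library: 6 cDC1 markers summed to 2143 to 2397 CPM in the cDC1 libraries and to 75.9 to 85.6 in the cDC2 libraries, where CPM is a gene's normalised count scaled to a common library total. The 7 cDC2 markers summed to 34.2 to 43.4 in cDC1 and to 1913 to 2312 in cDC2. Markers of B cells (7 genes) summed to 295 to 562 CPM, markers of NK cells (5 genes) to 149 to 208 CPM in cDC1 and 88.4 to 108 CPM in cDC2, and markers of monocytes and macrophages (6 genes) to 76.2 to 129 CPM in cDC1 and 313 to 390 CPM in cDC2. Most of the B cell sum was Ighm (265.8 to 524.6 CPM), and most of the NK sum was Klrk1 (137 to 187 CPM in cDC1 and 83.0 to 101 CPM in cDC2). Of the 6 monocyte and macrophage genes, 2 were called higher and 3 lower in wild-type cDC1: Adgre1 had 3.25 to 4.67 CPM in cDC1 and 203.8 to 243.4 CPM in cDC2, whereas Ccr2 had 70.7 and 74.8 CPM in wild-type cDC1 and 41.9 and 41.5 CPM in wild-type cDC2. Neutrophil markers (4 genes) summed to 0.309 to 4.01 CPM in wild type and to 10.2 to 40.4 CPM in the mutants. Erythroid markers (6 genes) summed to 84.2 CPM in replicate 2 of the Irf8 mutant and to 5.38 to 15.5 CPM in the other libraries. The part of all these in the results was not tested. In bulk samples, fewer cells of a type and less RNA per cell cannot be told apart. Immediate-early genes (10 genes) summed to 13220 and 14070 CPM in wild-type cDC1, 9651 and 9372 in Zeb2 mutant cDC1, 22820 and 21390 in wild-type cDC2, and 12660 and 15920 in Irf8 mutant cDC2. Every mutant library was thus below both wild-type libraries of its cell type, and the part of these genes was likewise not tested. The 84 tested genes described here moved together between replicates. In wild-type cDC1, 83 of the 84 were higher in replicate 2 than in replicate 3, with a median difference of 0.45 on the log2 scale. In the Zeb2 mutant 3 were higher in replicate 2 (median -0.24), and in the Irf8 mutant 13 (median -0.21). In wild-type cDC2 34 were higher in replicate 2 (median -0.034). The nuclear RNAs Malat1 and Neat1 summed to 1794 CPM in replicate 2 of wild-type cDC1 and to 984 CPM in its replicate 3, and their part was not tested. The comparisons that use wild-type cDC1 are also summarised without its replicate 2.

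As background, the small subunit reads the messenger RNA and the large subunit joins the amino acids, and each ribosome holds 1 copy of nearly all of its proteins. The messenger RNAs of these proteins begin with a run of pyrimidines at the cap, the 5′ terminal oligopyrimidine (TOP) tract, through which the kinase complex mTORC1 and the cap-binding protein LARP1 set their translation and stability. Dendritic cells raise protein synthesis on activation, and TOP messenger RNAs are a main target of mTORC1 in immune cells.

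Start-site sequences were read as a feature that the naming rule did not use. RefSeq promoter windows (build GRCm38.p6, 250 bases before to 50 bases after each listed start) were found for 66 of the 86 genes, with 78 listed starts. Each sequence below runs 5′ to 3′ from 10 bases before the listed start, and capitals mark the uninterrupted C and T tract that begins with a C at the start itself. The first 6 carry such a tract, and Rps27l, Rps12 and Rps9 do not at the start shown. Within 5 bases of that start, a C followed by at least 4 further C or T begins in Rps27l and Rps9 but not in Rps12. Rps27l had the largest difference between cell types and Rps9 one of the smallest.
Rpl35a: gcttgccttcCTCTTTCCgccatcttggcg
Rpl38: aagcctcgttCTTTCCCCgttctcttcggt
Rpl35: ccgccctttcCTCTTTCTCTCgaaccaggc
Rps21: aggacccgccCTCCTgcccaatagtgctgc
Rps27: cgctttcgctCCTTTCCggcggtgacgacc
Rps27rt: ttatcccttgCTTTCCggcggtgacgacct
Rps27l: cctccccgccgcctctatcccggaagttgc
Rps12: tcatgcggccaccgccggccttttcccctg
Rps9: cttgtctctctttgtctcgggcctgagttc
They lie at chr16:33056472-33056501 (Rpl35a, plus strand), chr11:114668570-114668599 (Rpl38, plus), chr2:39005112-39005141 (Rpl35, minus), chr2:180257369-180257398 (Rps21, plus), chr3:90213629-90213658 (Rps27, minus), chr9:114982720-114982749 (Rps27rt, minus), chr9:66946076-66946105 (Rps27l, plus), chr10:23787190-23787219 (Rps12, minus) and chr7:3704031-3704060 (Rps9, plus). Rps27rt is a retrogene copy of Rps27. Rpl35a, Rps21 and Rps27l have further listed starts that are not shown.

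A C at the listed start followed by at least 4 further C or T was found at 17.9% of the 78 starts, against 2.5% of the 32851 starts in the table. With the tract allowed to begin within 5 bases of the listed start, the shares were 41.0% and 18.3%. The letters CCGGAAG, on either strand and anywhere in the window, stood at 34.6% of the starts against 8.9% of all, AAGATGG at 15.4% against 6.3%, and TATAAA at 9.0% against 13.6%. These matches describe letters in the table's windows and not bound sites, and the listed start may lie some bases from the one used in these cells. The 14 tested genes with a tract at a listed start had a median cDC1 minus cDC2 log2 fold change of 0.85 in wild type and 0.58 in the mutants. The 50 tested genes listed without one at the start had medians of 0.79 and 0.53. Some of these 50, such as Rps9 and Rps27l, have a tract that begins within 5 bases of a listed start.

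As a whole, ribosomal protein genes took a larger part of the counts in cDC1 than in cDC2. The 86 genes took 2.03% and 1.61% of the counts in wild-type cDC1 (replicates 2 and 3), 1.31% and 1.54% in the Zeb2 mutant cDC1, 1.08% and 1.11% in wild-type cDC2, and 0.922% and 1.06% in the Irf8 mutant cDC2. All 4 cDC1 libraries lay above all 4 cDC2 libraries. The means were 1.82% ± 0.301 (SD, n = 2), 1.43% ± 0.159, 1.09% ± 0.0262 and 0.990% ± 0.0955 in the same order, a ratio of 1.66 between the wild-type groups and of 1.44 between the mutant groups. Exact (Clopper-Pearson) 95% intervals, which cover counting error only, were narrow, such as 0.920 to 0.925% for the lowest library. The counts on 294 pseudogenes and the 6 coding genes named as pseudogenes came to 2.94% to 4.40% of those on the 86 genes.

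Counts on the subunits stood in a different ratio in the cell types. Counts on the 43 large-subunit genes over counts on the 31 small-subunit genes were 1.26 and 1.28 in wild-type cDC1, 1.26 and 1.25 in Zeb2 mutant cDC1, 1.41 and 1.42 in wild-type cDC2, and 1.43 and 1.39 in Irf8 mutant cDC2. The ratio was thus lower in every cDC1 library than in any cDC2 library, and within a cell type wild type and mutant lay close together. The median principal transcript was 860 bases long for small-subunit genes and 906 for large-subunit genes.

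**Figure D1:**
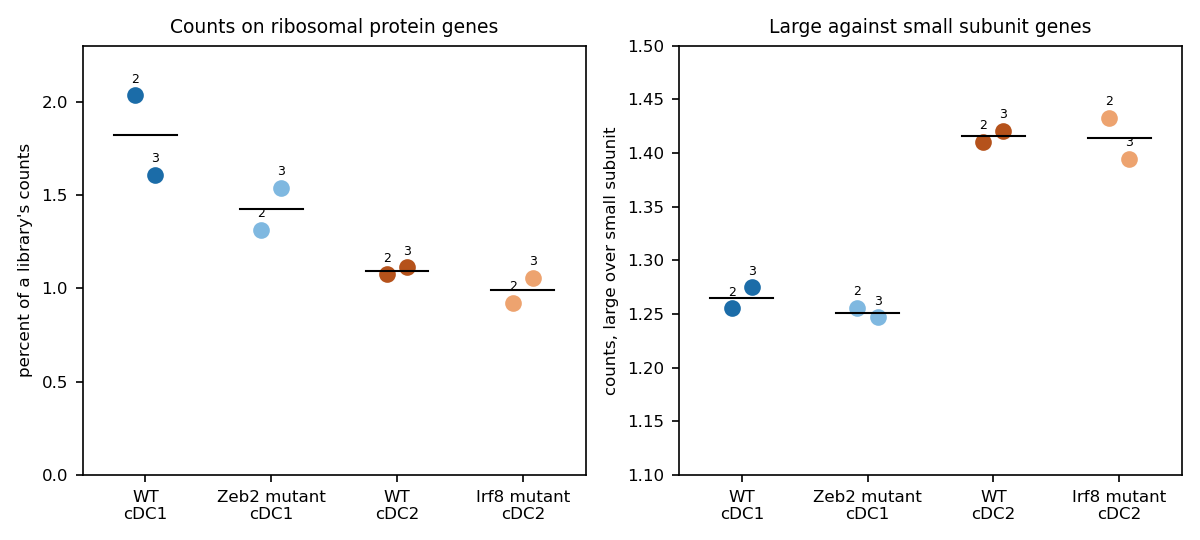
Left, percent of each library's counts on the 86 ribosomal protein genes (axis from 0). Right, counts on the 43 large-subunit genes over those on the 31 small-subunit genes (axis not from 0); points are libraries, marked by replicate number, and bars are means of 2. The cDC1 libraries lie between 1.31% and 2.03% and the cDC2 libraries between 0.922% and 1.11%, while the ratio is 1.25 to 1.28 in cDC1 and 1.39 to 1.43 in cDC2.

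Gene by gene, ribosomal protein genes were higher in wild-type cDC1 than in wild-type cDC2. By edgeR's quasi-likelihood test with Benjamini-Hochberg adjustment over all 20631 tested genes, 65 of the 84 were called higher at an adjusted p under 0.05 and 0 lower, where 14.2% of all tested genes were called higher and 15.9% lower. The median log2 fold change was 0.82 (1.76-fold), against 0.03 over all tested genes, and 82 of the 84 had a positive value. Without replicate 2 of wild-type cDC1 the median was 0.54, and without replicate 3 it was 1.04. Leaving out replicate 2 of wild-type cDC2 gave a median of 0.78.

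The 2 mutant groups set cDC1 against cDC2 in other libraries and other genotypes, although both tests use 1 estimate of the spread taken over all 8 libraries. Zeb2 mutant cDC1 against Irf8 mutant cDC2 had 40 of the 84 genes higher and 0 lower by edgeR, where 12.8% of all tested genes were called higher and 15% lower, with a median log2 fold change of 0.53. All 40 were among the 65, which is 61.5% of the wild-type calls. The median was 0.40 without replicate 3 of the Zeb2 mutant and 0.51 without replicate 2 of the Irf8 mutant. Across the 84 genes the log2 fold changes of the 2 comparisons had a Pearson correlation of 0.88 and a Spearman correlation of 0.91, a description across genes that share length and depth in both. The value was larger in wild type for 83 of the 84 genes.

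In 56 of the 84 genes all 4 cDC1 libraries lay above all 4 cDC2 libraries, where this held for 19.6% of all tested genes. The opposite order held for 0 of the 84 and for 20.4% of all.

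**Figure D2:**
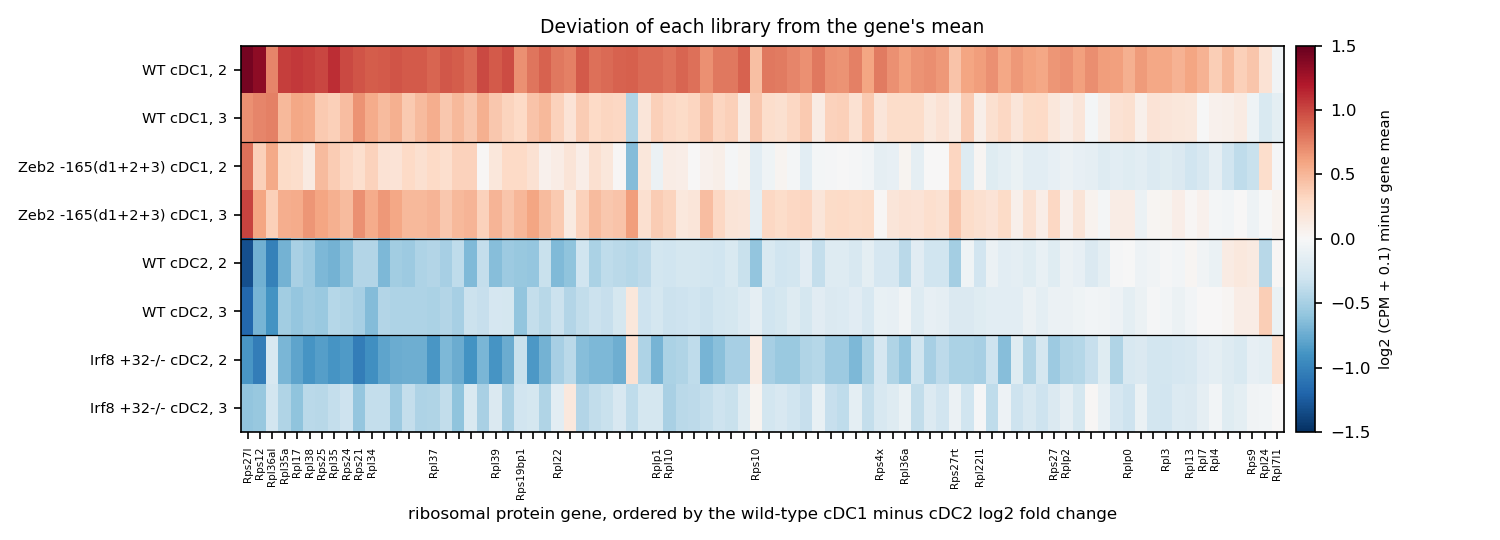
Log2 of normalised CPM plus 0.1, minus the gene's mean over the 8 libraries, for the 84 tested ribosomal protein genes, ordered by the wild-type cDC1 minus cDC2 difference, with names for some of the genes described in the text. Rows are libraries by group and replicate number; the top row, replicate 2 of wild-type cDC1, is the highest, with a median deviation of 0.76 against 0.31 for replicate 3, and at the right end Rps9, Rpl24 and Rpl7l1 show little difference between cell types.

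Among the small-subunit genes, 28 of 31 rose in wild-type cDC1 and 19 of 31 did so in the mutant comparison, with median log2 fold changes of 0.88 and 0.58. Rps12, a protein at the beak of the small subunit, was at 99.0 and 64.6 CPM in wild-type cDC1, 49.7 and 58.7 in Zeb2 mutant cDC1, 23.5 and 23.9 in wild-type cDC2, and 18.9 and 26.1 in Irf8 mutant cDC2. Its lowest cDC1 library was thus well above its highest cDC2 library. The log2 fold change was 1.79 ± 0.22 (SE, edgeR adjusted p = 0.000163) in wild type and 1.27 ± 0.22 in the mutants (edgeR adjusted p = 0.00156). Rps12 shares 81.6% of its 100-base windows with other genes, mostly its pseudogenes, and how the authors counted shared reads is not given in the sources used here.

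Rps21 and Rps25 had the next clearest differences of this subunit. Rps21 stood at 54.6 and 45.2 CPM in wild-type cDC1 and 33.7 and 45.6 in Zeb2 mutant cDC1, against 20.8 and 20.04 in wild-type cDC2 and 13.8 and 18.9 in Irf8 mutant cDC2. Its windows are shared with no other gene. Its log2 fold changes were nearly equal in the 2 comparisons, 1.29 ± 0.20 in wild type (edgeR adjusted p = 0.000818) and 1.28 ± 0.20 in the mutants (edgeR adjusted p = 0.000899). Rps25, a protein of the small subunit's head known for a role at viral internal ribosome entry sites, was at 339 and 222 CPM in wild-type cDC1, 234 and 255.6 in Zeb2 mutant cDC1, 106 and 115 in wild-type cDC2 and 95.5 and 127 in Irf8 mutant cDC2, again without overlap between cell types. Its log2 fold change was 1.35 ± 0.20 in wild type and 1.14 ± 0.20 in the mutants. Rps24 (1.29 ± 0.21 and 0.95 ± 0.21) was also higher in cDC1 in both comparisons.

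The 3 small-subunit genes that were not called in wild type were Rps9, Rps10 and Rps27, named because they are the exceptions. Rps9, which helps to hold the decoding centre accurate, had 539 and 385 CPM in wild-type cDC1, 441 and 434 in wild-type cDC2, 320 and 384 in Zeb2 mutant cDC1 and 369 and 389 in Irf8 mutant cDC2. The cell types overlapped, with log2 fold changes of 0.08 ± 0.17 (edgeR adjusted p = 0.778) and -0.11 ± 0.17 (edgeR adjusted p = 0.696). Rps10, at 1.26 to 2.696 CPM, was the least abundant small-subunit gene; 28.7% of its exon bases overlap 2 other gene models, 1 of them named RPS10-NUDT3, and 47.7% of its windows are shared. Its value was 0.82 ± 0.33 in wild type (edgeR adjusted p = 0.0887) and -0.24 ± 0.33 in the mutants.

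Among the large-subunit genes, 32 of 43 rose in wild-type cDC1 and 18 of 43 in the mutant comparison, with medians of 0.72 and 0.48. Rpl35a, known as a gene mutated in Diamond-Blackfan anaemia, was at 129 and 87.9 CPM in wild-type cDC1, 76.8 and 92.0 in Zeb2 mutant cDC1, 38.6 and 44.0 in wild-type cDC2, and 39.2 and 46.1 in Irf8 mutant cDC2. No cDC1 library overlapped a cDC2 library. The log2 fold change was 1.40 ± 0.19 in wild type (edgeR adjusted p = 0.000362) and 0.99 ± 0.19 in the mutants (edgeR adjusted p = 0.00321). Rpl38, known from the mouse Tail-short mutant and for its part in Hox translation, was at 73.9 and 53.0 CPM in wild-type cDC1, 39.5 and 57.0 in Zeb2 mutant cDC1, 24.6 and 24.9 in wild-type cDC2, and 19.5 and 27.2 in Irf8 mutant cDC2. Its log2 fold change was 1.36 ± 0.23 in wild type and 1.05 ± 0.23 in the mutants, where the call was lost without replicate 3 of the Zeb2 mutant (0.76).

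Of the other large-subunit genes with the largest differences, Rpl17 had log2 fold changes of 1.38 ± 0.18 and 1.11 ± 0.18, Rpl34 of 1.28 ± 0.20 and 1.07 ± 0.20, and Rpl37 of 1.17 ± 0.17 and 1.05 ± 0.17 in wild type and in the mutants. Rpl35, at the peptide exit of the tunnel, had 1.34 ± 0.25 and 1.06 ± 0.25, but 66.2% of its exon bases overlap Arpc5l and Wdr38 and 83.0% of its windows are shared. The call of Rpl35 in the mutants was lost without replicate 3 of the Zeb2 mutant (0.99) or replicate 2 of the Irf8 mutant (0.89). Reads of these overlapping genes could not be separated from its own.

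The most abundant large-subunit genes had small differences. Rpl4, with the highest mean of all 86 genes (780 CPM), was at 1005 and 810 CPM in wild-type cDC1, 704 and 760 in Zeb2 mutant cDC1, 726 and 781 in wild-type cDC2 and 700 and 756 in Irf8 mutant cDC2. The groups overlapped apart from wild-type cDC1, and the log2 fold changes were 0.27 ± 0.14 (edgeR adjusted p = 0.172) and 0.01 ± 0.14 (edgeR adjusted p = 0.976). Rpl13 (617 CPM on average) had 0.39 ± 0.16 and 0.10 ± 0.16, and Rpl3 (518 CPM), which lines the entry to the peptidyl transferase centre, 0.43 ± 0.15 and 0.22 ± 0.15. None of these 3 was called in either comparison. Without replicate 3 of wild-type cDC1, Rpl4, Rpl13 and Rpl3 were called in wild type, at 0.42, 0.59 and 0.62.

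Rpl24 stood at the other end, with 30 to 57 counts per library, or 0.546 to 1.01 CPM. It encodes a large-subunit protein that bridges to the small subunit, but 47.0% of its exon bases overlap another gene model and 80.1% of its windows are shared, so its level is uncertain. The same holds for Rpl23a (62.3% overlapped, 4.35 to 11.3 CPM) and Rpl13a (35.4%, 3.58 to 12.2 CPM). With Rps10 these were the 4 subunit genes under 15 CPM on average, where the median subunit gene had 123 CPM, and each was among the 7 subunit genes with more than 25% of their exon bases overlapped.

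The ribosomal stalk, which recruits the translational GTPases, is made of Rplp0 and dimers of Rplp1 and Rplp2. Rplp0 was at 879 and 717 CPM in wild-type cDC1, 536 and 652 in Zeb2 mutant cDC1, 602 and 548 in wild-type cDC2, and 515 and 487 in Irf8 mutant cDC2. Wild-type cDC1 lay above all other libraries and the mutant cDC1 overlapped wild-type cDC2. Its log2 fold change was 0.47 ± 0.15 in wild type (edgeR adjusted p = 0.0332), a call lost without either library of wild-type cDC2 (0.57 without replicate 2, 0.43 without replicate 3), without replicate 2 of wild-type cDC1 (0.31) and without either Zeb2 mutant library (0.47 each), and it was 0.25 ± 0.15 in the mutants (edgeR adjusted p = 0.256).

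Rplp1 was at 260 and 186 CPM in wild-type cDC1, 136 and 188 in Zeb2 mutant cDC1, 119 and 120 in wild-type cDC2 and 88.6 and 121 in Irf8 mutant cDC2. It was higher in cDC1 in both comparisons, by 0.90 ± 0.21 (edgeR adjusted p = 0.0089) and 0.63 ± 0.21 (edgeR adjusted p = 0.0484). The first call was lost without replicate 2 of wild-type cDC1 (0.63), and the second without replicate 3 of the Zeb2 mutant (0.38) or replicate 2 of the Irf8 mutant (0.49). Rplp2 had 205 and 137 CPM in wild-type cDC1 against 120 and 119 in wild-type cDC2, and 120 and 133 in Zeb2 mutant cDC1 against 92.9 and 117 in Irf8 mutant cDC2. Its log2 fold changes of 0.51 ± 0.19 (edgeR adjusted p = 0.0627) and 0.27 ± 0.19 did not pass the test. The first was called without replicate 3 of wild-type cDC1 (0.78).

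**Figure D3:**
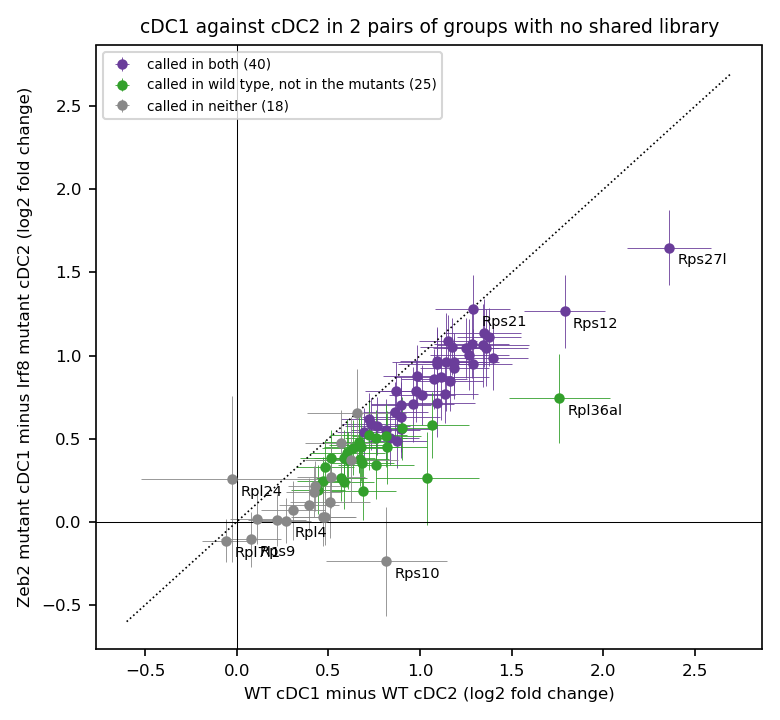
Log2 fold change of cDC1 over cDC2 in wild type (x) and in the mutants (y) for the tested ribosomal protein genes except Rpl39l, whose SE exceeds 1; bars are SE and the dotted line marks equal values. The 40 genes called in both lie at the upper right, Rps27l is farthest out at 2.36 and 1.65, and nearly all points lie below the line.

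The paralogs held the largest difference. Rps27l, a paralog of Rps27 known as a p53 target, was at 155 and 92.1 CPM in wild-type cDC1, 102 and 115 in Zeb2 mutant cDC1, 22.9 and 25.3 in wild-type cDC2 and 31.1 and 38.1 in Irf8 mutant cDC2. The lowest cDC1 library thus held over 92 CPM and the highest cDC2 library 38.1. The gene was 5.13-fold higher in wild-type cDC1 (log2 2.36 ± 0.23, edgeR adjusted p = 3.01e-05) and 3.14-fold higher in Zeb2 mutant cDC1 than in Irf8 mutant cDC2 (1.65 ± 0.22, edgeR adjusted p = 0.000314). It lies at chr9:66946086-66949516 in GRCm38, shares no window with another gene, and it was called higher in both comparisons in every alternative run.

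Rps27 itself had 189 and 134 CPM in wild-type cDC1, 109 and 148 in Zeb2 mutant cDC1, 105 and 112 in wild-type cDC2 and 81.9 and 103 in Irf8 mutant cDC2. Its log2 fold changes of 0.57 ± 0.20 (edgeR adjusted p = 0.0536) and 0.47 ± 0.20 (edgeR adjusted p = 0.109) did not pass. Without replicate 3 of wild-type cDC1, or without any 1 of the 4 mutant libraries, the first was called (0.57 to 0.80). The second was called without either wild-type cDC1 library (0.48 and 0.54). The retrogene Rps27rt had 3.44 to 6.69 CPM and values of 0.66 ± 0.27 and 0.65 ± 0.27, with no call. Since 98.4% of the windows of Rps27 and 89.5% of those of Rps27rt are shared, their split is uncertain.

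Rpl36al, a paralog of Rpl36a, was 5.31 and 5.41 CPM in wild-type cDC1, 4.71 and 4.08 in Zeb2 mutant cDC1, 1.51 and 1.65 in wild-type cDC2 and 2.66 and 2.59 in Irf8 mutant cDC2. The cell types did not overlap. It rose in wild-type cDC1 by 1.76 ± 0.28 (edgeR adjusted p = 0.000786), while the mutants' value of 0.74 ± 0.27 did not pass (edgeR adjusted p = 0.065). The 24.5% of its exon bases that overlap another gene model leave its level uncertain. Rpl36a, with 83.6% of windows shared, had 0.68 ± 0.20 in wild type, which was not called without replicate 2 of wild-type cDC1 (0.49) or of wild-type cDC2 (0.54), and 0.45 ± 0.21 in the mutants, which was called without replicate 3 of the Irf8 mutant (0.78) or of wild-type cDC1 (0.52).

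Rpl22, a protein with a known role in lymphocyte development, was at 79.6 and 58.7 CPM in wild-type cDC1, 49.8 and 60.7 in Zeb2 mutant cDC1, 29.2 and 36.9 in wild-type cDC2, and 32.6 and 41.3 in Irf8 mutant cDC2. It shares no window. It rose in wild type by 1.07 ± 0.20 (edgeR adjusted p = 0.00243), and its value in the mutants was 0.58 ± 0.20 (edgeR adjusted p = 0.0527), which was called without replicate 3 of the Irf8 mutant (0.82) and without any 1 of the 4 wild-type libraries (0.59 to 0.65). Its paralog Rpl22l1, known to be repressed by Rpl22 protein in other cells, had 7.05 to 15.6 CPM and 0.63 ± 0.25 and 0.38 ± 0.25, with no call in either. Without replicate 3 of wild-type cDC1 its wild-type value was called at 0.88.

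The remaining pairs set a common gene beside a rare one. Rpl39, with 56.7 and 39.6 CPM in wild-type cDC1 and 19.2 and 25.2 in wild-type cDC2, rose by 1.12 ± 0.26 (edgeR adjusted p = 0.00792), a call lost without replicate 2 of wild-type cDC1 (0.83) or of wild-type cDC2 (0.96). Its paralog Rpl39l, best known from the male germline, had 1 to 14 counts per library, and its log2 fold change of 0.93 ± 1.57 says nothing at this depth. Rpl3l, the striated-muscle paralog of Rpl3, had 0 to 11 counts, and Rpl10l, the testis paralog of Rpl10, had 0 in every library. Rpl10 itself was 1.86-fold higher in wild-type cDC1 (0.90 ± 0.17, edgeR adjusted p = 0.00222) and 1.63-fold higher in the mutants' cDC1, the latter not called without replicate 3 of the Zeb2 mutant (0.60). Rps4x, the X-linked form of S4, rose by 0.69 ± 0.18 in wild type, which was not called without replicate 2 of wild-type cDC1 (0.36) or of wild-type cDC2 (0.64), and had 0.19 ± 0.18 in the mutants.

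The 2 genes that are not subunits went separate ways. Rpl7l1, an assembly factor of the large subunit related to Rpl7, had 127 and 119 CPM in wild-type cDC1, 130 and 137 in Zeb2 mutant cDC1, 133 and 123 in wild-type cDC2, and 156 and 132 in Irf8 mutant cDC2. These groups overlapped (-0.06 ± 0.13, edgeR adjusted p = 0.791). Rpl7 had 0.31 ± 0.18 and 0.07 ± 0.18 and was not called, except in wild type without replicate 3 of wild-type cDC1 (0.55). Rps19bp1, a binding protein of Rps19 that acts on the deacetylase SIRT1, was at 17.9 and 13.8 CPM in wild-type cDC1, 13.7 and 15.8 in Zeb2 mutant cDC1, 7.46 and 7.39 in wild-type cDC2 and 8.84 and 9.14 in Irf8 mutant cDC2, with no overlap. It rose by 1.09 ± 0.21 in wild type (edgeR adjusted p = 0.00247) and by 0.71 ± 0.20 in the mutants (edgeR adjusted p = 0.0246), the second call being lost when any 1 of the 4 mutant libraries was left out (0.61 to 0.82).

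**Figure D4:**
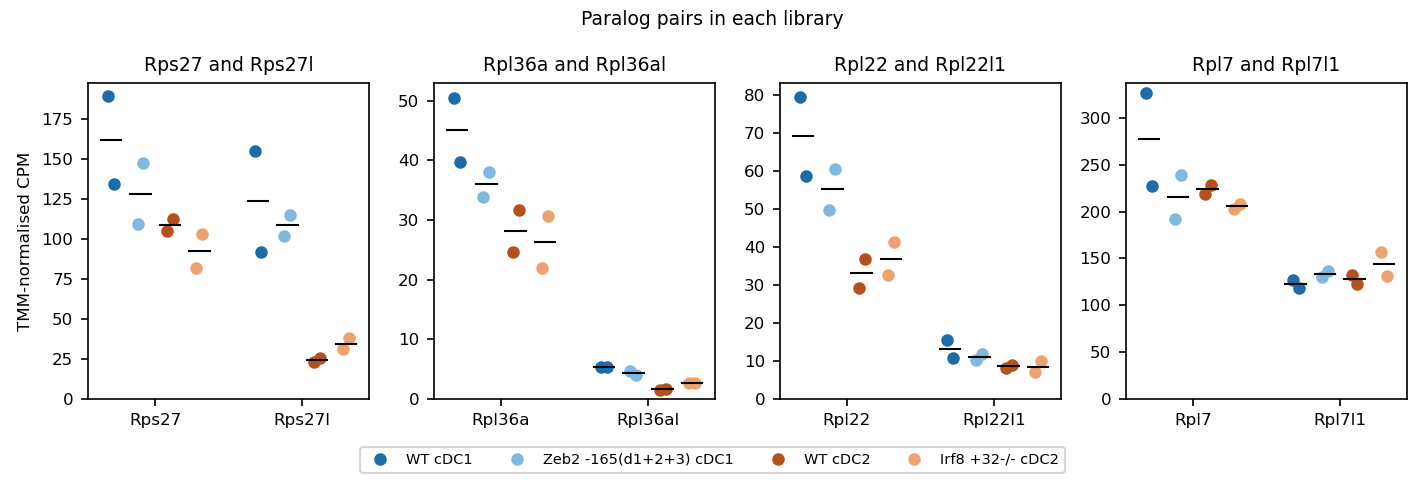
Normalised CPM of 4 pairs of related genes in each library (axes from 0); points are libraries and bars are means of 2. Rps27l is at 92.1 to 155 CPM in cDC1 and 22.9 to 38.1 in cDC2, whereas Rps27 and Rpl7 overlap between cell types and Rpl7l1 stays between 119 and 156 CPM.

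To see which members stood apart from the others, libraries were also scaled to the total of the ribosomal protein genes, a scaling under which the median of all genes moved to -0.60 in wild type and which called 861 genes higher and 6066 lower in place of 2932 and 3287. Under it 15 of the 84 remained higher in wild-type cDC1 and 3 were lower, among them Rps9 and Rpl7l1. In the mutants 12 were higher and 1 lower, where 4.71% of all tested genes were higher and 20.4% lower. The 10 genes higher in both included Rps27l, Rps12, Rps21, Rps25, Rpl17, Rpl31, Rpl34, Rpl35a and Rpl38, and Rps9 was lower in both. These members were named for that result after their values were seen.

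Levels were compared between genes only per length. Over the 8 libraries, mean CPM per kilobase of the principal transcript was highest for Rpl13 (791), with Rpl4 at 507, Rplp0 at 454 and Rps9 at 446. Per kilobase of all exon bases the order was led by Rpl4 (389), with Rplp0 at 372 and Rpl13 at 238. The choice of length thus reorders neighbours in this list. At the other end stood the genes with overlaps or shared sequence named above, from Rpl13a (6.95 CPM per kilobase of principal transcript) to Rpl24 (1.14), and then Rpl39l (0.121). Over the 77 subunit genes, 73 shared at least 1 window of 100 bases with another gene and the median share was 35.8% of windows.

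Ribosomal protein transcripts are short, and length was read both as all exon bases of a gene and as its principal transcript. The principal transcript of the members had a median of 882 bases, and other genes changed with length too. Among genes with at least 10 CPM on average, the Spearman correlation of exon length with the wild-type cDC1 minus cDC2 log2 fold change was -0.26 over 8322 genes that are not members, and it was -0.13 for the mutants. The 198 other genes with a principal transcript under 800 bases had a median of 0.72 and 65.7% of them were called higher, beside a median of 0.83 for the 33 members of that length. In the next class, which starts at 800 bases, the medians were 0.47 (422 other genes) and 0.81 (25 members). Within the 77 members of that abundance, the correlation with exon length was -0.21.

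With the trend on exon length removed from each library, 54 of the 84 genes were higher and 0 lower in wild type (median 0.52). Of all tested genes 13.1% were higher and 15.7% lower there. In the mutants 35 of the 84 were higher and 0 lower (median 0.38), where the shares of all tested genes were 12.4% and 16.2%. Of these calls, 53 of the 54 and all 35 had been made before. With the trend on principal transcript length removed, 25 were higher and 4 lower in wild type (median 0.22), where 13.7% of all tested genes were higher and 14.9% lower. In the mutants 21 were higher and 6 lower (median 0.13), where the shares of all tested genes were 12.7% and 15.9%. Under this setting 19 genes were higher in both comparisons, among them Rps27l, Rps12, Rps25, Rps24, Rpl17, Rpl34, Rpl35 and Rpl37, and 4 were lower in both, Rps9, Rps27, Rpl36 and Rpl7a. Among the genes that no longer passed in wild type were Rps21 (0.25), Rpl38 (0.39), Rpl39 (0.32), Rpl10 (0.29), Rps19bp1 (0.48), Rplp0 (0.15), Rplp1 (-0.020), Rpl36a (-0.24) and Rps4x (0.15). Each such trend is fitted across genes, the members included, whose own differences between cell types are not separated from length. How much of the difference goes with length and how much with the ribosome therefore cannot be told apart.

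**Figure D5:**
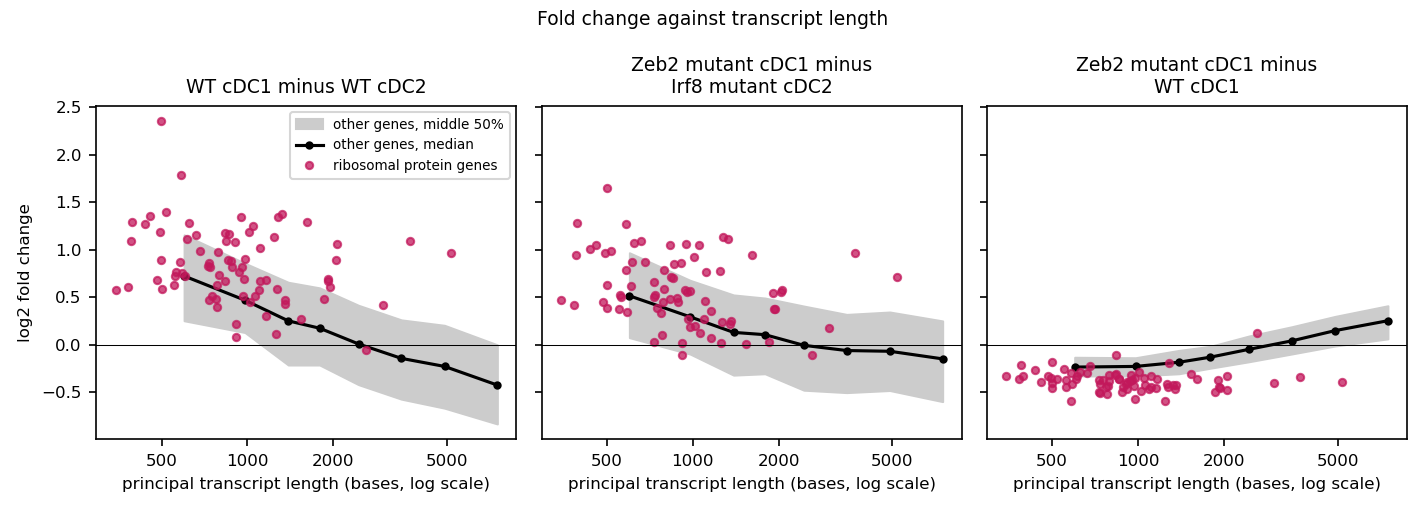
Log2 fold change against principal transcript length (log axis) for ribosomal protein genes with at least 10 CPM (points), and the median and middle 50% of other genes, drawn once per length class at a point inside it. In both comparisons of cell types other short genes also lie above 0 (median 0.72 and 0.51 under 800 bases), and in the third panel ribosomal protein genes lie below 0 at all lengths apart from 1 point, Rpl7l1.

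Members with little shared sequence were also read alone. Of the 13 tested members with under 10% of windows shared and under 10% of exon bases overlapped, 10 rose in wild-type cDC1 (median 0.96). In the mutants 8 of them were higher (median 0.59). Of all tested genes, 14.2% were higher in wild type and 12.8% in the mutants.

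No ribosomal protein gene passed the test between a mutant and the wild type of its cell type. In Zeb2 mutant cDC1 against wild-type cDC1, 0 of the 84 genes were called in either direction by edgeR, where 0.0145% of all tested genes were called higher and 0.0533% lower; 34 were lower and 0 higher at an unadjusted p under 0.05, which 5.05% of all tested genes met as lower and 5.5% as higher. DESeq2 called 0 too, where it called 0.669% of all tested genes higher and 0.664% lower. The median log2 fold change was -0.37, against -0.03 over all tested genes, and 81 of the 84 values were negative. Both mutant libraries lay below both wild-type libraries in 40 of the 84 genes, where this held for 19.8% of all tested genes. Rps12 (-0.59 ± 0.22), Rps4x (-0.57 ± 0.18), Rpl13 (-0.52 ± 0.16), Rpl3 (-0.46 ± 0.15) and Rplp0 (-0.43 ± 0.15) are examples, with edgeR adjusted p from 0.312 to 0.383.

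The size of this difference depended on which wild-type library was used. Without replicate 2 of wild-type cDC1 the median was -0.12 with 0 calls, and without replicate 3 it was -0.56 with 33 genes called lower, where that fit called 1.4% of all its tested genes lower and 3.28% higher. The 2 wild-type cDC1 libraries differed from each other along transcript length too: the correlation of exon length with the log2 ratio of replicate 2 to replicate 3 was -0.38 over other genes. It was 0.23 in the Zeb2 mutant, 0.13 in the Irf8 mutant and -0.004 in wild-type cDC2. Across the same genes, length correlated at 0.47 with the Zeb2 mutant minus wild-type cDC1 difference. With the trend on principal transcript length removed the members' median was -0.15.

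In Irf8 mutant cDC2 against wild-type cDC2, edgeR called 0 of the 84 genes and 0% of all tested genes in each direction. At an unadjusted p under 0.05, 2 were higher and 0 lower, where 3.33% of all tested genes met this as higher and 3.03% as lower. The 2 higher genes are thus no excess over that share. DESeq2 called 0 of the 84, where it called 0.349% of all tested genes higher and 0.32% lower. The median was -0.13 (-0.053 without replicate 2 of the Irf8 mutant and -0.28 without replicate 3), and 72 of the 84 values were negative. In 39 genes both mutant libraries lay below both wild-type libraries, where this held for 19.7% of all tested genes. The 2 genes with an unadjusted p under 0.05 were the paralogs Rpl36al (0.73 ± 0.27, edgeR adjusted p = 0.708) and Rps27l (0.52 ± 0.22, edgeR adjusted p = 0.759). For both, the Irf8 mutant cDC2 libraries lay above the wild-type cDC2 libraries and below every cDC1 library.

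Subtracting the Irf8 mutant's difference from wild type from that of the Zeb2 mutant gave 0 calls in each direction among the 84, with 0% of all tested genes called higher and 0.0194% lower; at an unadjusted p under 0.05, 0 were higher and 3 lower, where 3.8% of all tested genes met this as higher and 3.82% as lower. DESeq2 called 0 of the 84, where it called 0.33% of all tested genes higher and 0.354% lower. The median of this difference was -0.24, and it was 0.01 without replicate 2 of wild-type cDC1. Without replicate 3 of the same group 2 members were called lower, beside 0.712% of all genes in that fit.

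Other genes of the translation machinery were read from lists chosen for their roles. Beside their counts, 14.2% of all tested genes were called higher and 15.9% lower in wild-type cDC1. In the mutants the shares were 12.8% and 15%. Of genes tied closely to the ribosome, Rack1, a scaffold on the small subunit, had 310 and 250 CPM in wild-type cDC1, 174 and 213 in Zeb2 mutant cDC1, 178 and 162 in wild-type cDC2, and 160 and 155 in Irf8 mutant cDC2. It rose in wild type (0.72 ± 0.15, edgeR adjusted p = 0.00439), and the mutants' value was 0.30 ± 0.15. Fau, the fusion that yields the small-subunit protein S30, had 0.28 ± 0.16 and did not pass.

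Of 29 translation factors and other genes with TOP messenger RNAs, 13 were higher and 1 lower in wild-type cDC1 (median 0.45), and 6 were higher and 1 lower in the mutants (median 0.12). Eef1b2, the exchange factor that recharges eEF1A with GTP, stood at 312 and 217 CPM in wild-type cDC1, 183 and 225 in Zeb2 mutant cDC1, 56.3 and 64.8 in wild-type cDC2 and 58.97 and 65.2 in Irf8 mutant cDC2. Its cell types lay far apart, with 2.13 ± 0.19 in wild type (edgeR adjusted p = 1.65e-05) and 1.72 ± 0.19 in the mutants (edgeR adjusted p = 6.93e-05). The initiation factor subunit Eif3g (1.05 ± 0.14) and the nucleolar chaperone Npm1 (0.83 ± 0.18) also rose in wild type, and Eif4b, a helper of the cap helicase, fell (-0.55 ± 0.13). The abundant elongation factors Eef1a1 (0.07 ± 0.13) and Eef2 (-0.01 ± 0.14) did not pass.

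Of 38 ribosome biogenesis genes, 18 were higher and 1 lower in wild-type cDC1 (median 0.43), and 10 and 2 in the mutants (median 0.17). Gar1 (1.18 ± 0.14), Nop10 (0.97 ± 0.17), Nhp2 (0.96 ± 0.15) and Dkc1 (0.88 ± 0.15), which together form the core of the H/ACA particles that place pseudouridine in ribosomal RNA, all rose in wild type. In the mutants they rose as well, by 0.72 ± 0.14, 0.67 ± 0.17, 0.64 ± 0.15 and 0.59 ± 0.15. The gene lowered in wild type was Rrn3 (-0.37 ± 0.13), an initiation factor of RNA polymerase I.

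The list of 22 regulators of mTORC1 and of TOP messenger RNAs had 21 tested genes, of which 2 were higher and 7 lower in wild-type cDC1 (median -0.08), and 1 higher and 7 lower in the mutants (median -0.14). Sesn2, a leucine sensor that holds mTORC1 back, was at 60.9 and 84.9 CPM in wild-type cDC1, 84.0 and 94.0 in Zeb2 mutant cDC1, 317 and 303 in wild-type cDC2 and 320 and 305 in Irf8 mutant cDC2. It was lower in cDC1 in both comparisons, with log2 fold changes of -2.09 ± 0.17 and -1.81 ± 0.16 (edgeR adjusted p = 7.04e-06 and 1.78e-05). Ddit4, a stress-induced inhibitor of mTORC1, was at 0.484 and 1.80 CPM in wild-type cDC1 and 19.7 and 24.6 in wild-type cDC2 (-4.27 ± 0.51), and Sesn1 fell as well (-1.95 ± 0.21). Among the lowered genes were also Rptor, a subunit of mTORC1 itself (-1.21 ± 0.19), and Myc (-1.06 ± 0.27), and neither is an inhibitor of mTORC1. The 2 that rose were Larp1 (0.42 ± 0.13), the repressor of TOP messenger RNAs, and Larp1b (0.94 ± 0.15).

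Genes of other common complexes had higher values in cDC1 as well. Of 77 tested genes of the mitochondrial ribosome, 49 were higher and 0 lower in wild-type cDC1 (median 0.64), and 37 and 0 in the mutants (median 0.56). Genes named after respiratory complex I and the proteasome core were listed as a comparison of short genes. Of the 63 tested, 48 were higher and 1 lower in wild-type cDC1 (median 0.78), and 36 and 1 in the mutants (median 0.64). Of the 16 tested RNAs of the mitochondrial genome, 14 were higher in each comparison, with medians of 2.17 and 1.69. The 150 tested pseudogenes named after ribosomal protein genes had medians of 0.95 and 0.69, with 37 and 22 called higher and 0 lower.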

How the data were processed

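RNA sequencing libraries of sorted splenic cDC1 and cDC2 were made with a kit that does not mark strand, from 10 ng of RNA with an integrity number above 8.0, and read as 150-base pairs, as the labels' protocols state. The submitters' processing notes name STAR, featureCounts of the Subread package, Salmon, bcl2fastq and build GRCm38. How reads shared between genes were handled is not given in the sources used here. Whole-number counts for each gene were used as deposited. The CPM, FPKM and TPM that the authors deposited were recomputed from counts and exon lengths to check them, and were not used further. Replicates are the libraries numbered 2 and 3 of each group.

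Symbols came from GENCODE M21 (260 IDs had no match). The members and lists were chosen with earlier results of these data known. Counts were filtered with filterByExpr (20631 genes kept), scaled by TMM and fitted over all 8 libraries with edgeR 4.0.16 in R 4.3.3 (glmQLFit, robust, 4 residual degrees of freedom, common biological coefficient of variation 0.286). A call is an adjusted p under 0.05 by the Benjamini-Hochberg method across the 20631 genes. The procedure was also run on simulated counts, whose results are not given here. Their changed genes were drawn without regard to length, so that run cannot separate length from differences between cell types. CPM in the text are TMM-normalised and ± after a log2 fold change is its SE. At depths of 49380686 to 58611821 counts, counting error is small beside the spread between libraries for most members. It is not small for genes with few counts, such as Rpl39l (1 to 14 per library) and Rpl24 (30 to 57).

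Genes named are up to 10 called members per comparison with the largest change, the 5 highest and 5 lowest by CPM, the stalk genes, paralog pairs, members that are not subunits, and up to 4 called genes per other list. Some genes that this rule names are not reported here. Others (Rps9, Rpl7a, Rpl36, Rpl13a, Rpl23a, genes listed under a scaling, and some translation genes) were chosen after their values were seen. A shared window is a 100-base stretch of a member's principal transcript that is found in a transcript of another gene. Length trends were removed per library by loess (span 0.5). Alternatives were DESeq2 1.42.0, other scalings and filters, length trends, a replicate block and leaving out each library. The trends on principal transcript length and without members, the scaling to the ribosomal protein total, the members with little shared sequence and the share without the 10 most abundant genes were added after seeing the data.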

Additional observations from a re-analysis of the deposited data

How the results depend on the processing

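The direction of the members' median held in every alternative for the 2 comparisons of cell types. Leaving out 1 library each gave 42 to 77 genes higher in wild-type cDC1 (medians 0.54 to 1.04) and 17 to 60 in the mutants (0.40 to 0.73), 0 to 33 lower in the Zeb2 mutant (-0.56 to -0.12), and 0 to 2 lower for the difference of effects, whose median ran from -0.38 to 0.012 and so changed sign. Removing the trend on exon length gave a wild-type median of 0.52, and 0.54 with that trend fitted without the members. With the replicate block added the median was the same (0.52, 46 members higher, beside 11.8% of all tested genes). The trend on principal transcript length was fitted only with the members included. By principal transcript length the wild-type values were 25 higher, 4 lower and a median of 0.22, the mutant values 21, 6 and 0.13, and the Zeb2 median -0.15; among the genes that changed sign were Rpl36a (-0.24), Rplp1 (-0.020), Rps27 (-0.56), Rps9 (-0.49), Rpl36 (-0.45) and Rpl7a (-0.34) in wild type, and Rpl13 (-0.38), Rplp1 (-0.062), Rps27 (-0.41), Rpl36 (-0.41) and Rpl7a (-0.38) in the mutants. Scaling to the ribosomal protein total left 15 higher and 3 lower in wild type, beside 4.17% and 29.4% of all tested genes. In the mutants it left 12 and 1, beside 4.71% and 20.4%. The 10 and 8 calls among members with little shared sequence come from fewer genes tested. Without the low-count filter 3 genes were lower in the Zeb2 mutant, beside 0.502% of all genes in that fit, and the cause was not tested. The group share, in the order wild-type cDC1, wild-type cDC2, Zeb2 mutant cDC1 and Irf8 mutant cDC2, was 3.25%, 2.16%, 2.75% and 1.98% per kilobase of exon and 1.19%, 0.642%, 0.942% and 0.592% without the 10 most abundant genes; with named pseudogenes wild-type cDC2 was 1.13%. With the replicate number as a block, 61 members were higher in wild type and 35 in the mutants, and 0 lower. Of all tested genes, 12.6% and 11.4% were higher with this block. Rplp0 in wild type and Rplp1 in the mutants were no longer called. The numbers give no pairing that the labels state, and same-numbered libraries correlated at -0.22 to 0.12 across 8399 genes.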
